A study of Drosophila melanogaster with 18 samples.

Results

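The fruit fly Drosophila melanogaster carries 6 actin genes, and their RNA was followed here across whole flies of both sexes from 3 populations. The members were the entries whose gene symbol was Act5C, Act42A, Act57B, Act79B, Act87E or Act88F, which gave 6 of the 16747 entries of the count tables. The study sequenced flies at 5 days of age from groups that the labels call INT and NINT, both at generation F12, and from F0 flies. INT and NINT are given as genetically heterogenous, and the labels do not spell out what either name stands for. For the F0 flies the labels list 10 strains, namely Canton-S, Harwich, BER_2, DGRP-100, Wild_1A, Oregon-R-C, w1118, the wing-hair mutant mwh, flr3, and flr3 in Oregon R, and do not say how these were combined. The series title concerns intelligence and longevity, and the design text names no other purpose. Each group was sampled in females and in males with 3 libraries, so that INT females, NINT females, F0 females, INT males, NINT males and F0 males made up 18 libraries.

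Actin polymerises into the filaments that shape and move cells, and in striated muscle it forms the thin filament on which myosin pulls. In Drosophila the family divides by where each gene is used. Act5C and Act42A encode the cytoplasmic actins that all cells need. Act57B and Act87E serve body wall and other tubular muscles, Act79B is a muscle actin of the adult thorax, legs and abdomen, and Act88F encodes the actin of the indirect flight muscle, the asynchronous muscle that powers the wings. The proteins are nearly identical, so the genes differ more in their untranslated ends and in where they are transcribed than in their products.

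In the coordinates of dm6, Act5C (FBgn0000042) lies on chromosome X at 5900861 to 5904173 on the plus strand, and Act42A (FBgn0000043) on 2R at 6013910 to 6015689 on the minus strand. Act57B (FBgn0000044) lies on 2R at 20944021 to 20946431, and Act79B (FBgn0000045) on 3L at 21985210 to 21987190, both on the plus strand. Act87E (FBgn0000046) lies on 3R at 13425983 to 13428089 and Act88F (FBgn0000047) on the same arm at 15439969 to 15442177, again both on the plus strand. In the annotation each of the 6 genes has a coding sequence of 1128 bases for a protein of 376 amino acids. Act42A, Act57B, Act79B and Act87E have 2 merged exons, and Act5C and Act88F have 3. Merged exons run from 1595 bases in Act88F to 1752 bases in Act5C. The annotation extends Act5C to 5905399 and Act87E to 13428375, beyond the ends in the count tables. The coding parts are close copies, and no source used here says how reads that match several genes were counted, so some exchange of reads between the 6 genes is possible. A small nucleolar RNA gene lies inside Act57B on the same strand, and the noncoding RNA gene lncRNA:CR45591 overlaps Act87E on the other strand. The library kit keeps strand, but the strand setting of the counting is not given, so the values of these overlapping pairs are uncertain.

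Female libraries held 31.6 to 58.3 M counts and male libraries 31.8 to 39.2 M, and the 6 actin genes together took 0.183% to 0.848% of the counts. Levels below are counts per 1e6 counts (CPM) with library sizes scaled by the TMM method of edgeR, unless plain CPM is named. Groups of females also differed in what else they held, though F0 and INT females overlapped in ribosomal RNA and in TMM factors. Ribosomal RNA took 10.41% to 23.16% of counts in INT females, 5.94% to 7.36% in NINT females and 20.28% to 36.26% in F0 females, against 1.84% to 8.8% in males. The summed plain CPM of 10 markers of ovary and female fat body was 14760 to 19830 in INT females, 26790 to 29990 in NINT females and 5919 to 8734 in F0 females. The same sum in males was 29.1 to 33.3 in INT, 161 to 1366 in NINT and 28.2 to 1766 in F0, so that NINT and F0 males held libraries with RNA of genes typical of females. TMM factors were 0.429, 0.643 and 0.806 in the F0 females and 0.797 to 1.221 in the other 15 libraries. Whole flies were sequenced, so fewer muscle cells and less actin RNA per muscle cell cannot be told apart. The labels do not say whether the 3 libraries of a group came from separate cultures, so the p-values below may measure technical spread only.

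Act5C, the main cytoplasmic actin, ranged 2.18-fold between the lowest and the highest of the 18 libraries, and 2.39-fold in plain CPM. Its level was 1122, 1088 and 1159 CPM in INT females, 1039, 1125 and 1011 CPM in NINT females, and 1465, 1411 and 1199 CPM in F0 females. All 3 F0 females were above all INT and NINT females, whose values overlapped. This order did not hold in plain CPM, with 895, 1120 and 1052 in INT, 1197, 1317 and 1194 in NINT, and 629, 907 and 966 in F0 females. Among males the TMM-scaled level of Act5C was 773, 708 and 1268 CPM in INT, 1232, 947 and 1219 CPM in NINT, and 896, 672 and 717 CPM in F0. There NINT stood above F0 without overlap, and the third INT male was the highest of all males while the other INT males lay among F0.

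Act42A, the second cytoplasmic actin, varied 2.07-fold over the 18 libraries, and 3.92-fold in plain CPM, and lay well below Act5C in each of them. It stood at 128, 135 and 131 CPM in INT females, 122.1, 123.1 and 124 CPM in NINT females, and 134, 136 and 115.3 CPM in F0 females. INT females were narrowly above NINT females without overlap, and F0 females spanned both. This order turned around in plain CPM, with 102, 139 and 119 in INT, 141, 144 and 146 in NINT, and 57.7, 87.3 and 92.9 in F0 females. INT males had 103, 90.8 and 132 CPM, NINT males 188, 126 and 154 CPM, and F0 males 124, 102 and 104 CPM. All NINT males exceeded all F0 males.

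Act57B, a body wall muscle actin, ranged 4.39-fold, and 3.36-fold in plain CPM. In females it had 516, 665 and 1524 CPM in INT, 839, 954 and 517 CPM in NINT, and 2108, 1712 and 732 CPM in F0. The 3 groups overlapped, with the third INT female and the first and second F0 females highest. In males it had 899, 920 and 926 CPM in INT, 611, 583 and 821 CPM in NINT, and 758, 480 and 534 CPM in F0. INT males formed a narrow band above every other male. In plain CPM the second INT male, at 996, fell just below the third NINT male, at 1002.

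Act87E, the other body wall muscle actin, ranged 9.6-fold, and 4.47-fold in plain CPM. Its level was 302, 462 and 1144 CPM in INT females, 268, 244 and 197 CPM in NINT females, and 1890, 1514 and 440 CPM in F0 females. NINT females lay below all other females. In plain CPM the first INT female, at 241, lay within the NINT females, at 309, 285 and 233. INT males had 458, 475 and 375 CPM, NINT males 261, 256 and 339 CPM, and F0 males 812, 428 and 497 CPM. NINT males were again below all other males.

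Act79B, the thoracic muscle actin, ranged 56.2-fold, and 25.4-fold in plain CPM. It had 201, 423 and 2166 CPM in INT females, 83.2, 95.7 and 76.7 CPM in NINT females, and 4308, 3582 and 534 CPM in F0 females. NINT females were lowest and close together, and the libraries within INT and within F0 differed from each other by 10.8-fold and 8.06-fold. In males the level was 210, 222 and 149 CPM in INT, 148, 134 and 149 CPM in NINT, and 1392, 232 and 251 CPM in F0. The first F0 male stood far above the other 8 males, and the remaining F0 males were just above INT.

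Act88F, the flight muscle actin, spanned 1144-fold in TMM-scaled CPM and 583-fold in plain CPM, the widest range of the 6. Its level was 22.4, 70.1 and 1975 CPM in INT females, 4.63, 5.57 and 8.92 CPM in NINT females, and 5299, 4835 and 325 CPM in F0 females. Each group kept its own range, except that the third INT female lay above the third F0 female. In males it stood at 10.98, 10.1 and 8.45 CPM in INT, 8.74, 11.3 and 11.1 CPM in NINT, and 1205, 8.38 and 9.99 CPM in F0. Apart from the first F0 male, the males did not separate by group. The third INT female, the first and second F0 females and the first F0 male, all above 1000 CPM of Act88F, are called the 4 high libraries below.

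**Figure D1:**
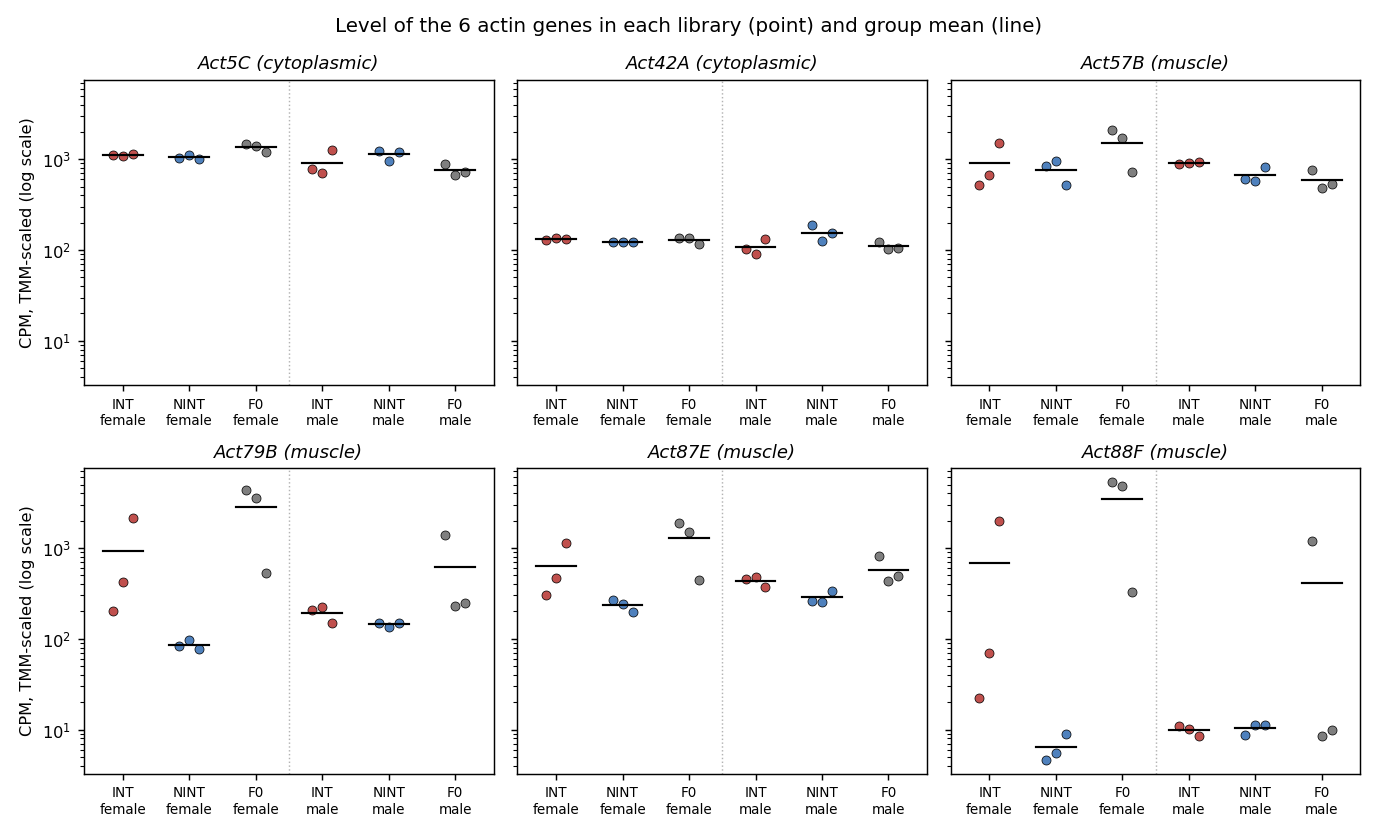
Level of each actin gene in TMM-scaled CPM on a log axis, with 1 point per library, a line at the group mean, and INT, NINT and F0 from left to right in females and then in males. On this scale Act5C spans 2.18-fold and Act42A 2.07-fold, while Act88F lies between 4.63 CPM in a NINT female and 5299 CPM in an F0 female.

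Levels of different genes were compared per kilobase of merged exons. In NINT females the order was Act5C with 604 ± 34 CPM per kb, Act57B with 447 ± 131, Act87E with 139 ± 21.3, Act42A with 75.7 ± 0.571, Act79B with 52.6 ± 5.99 and Act88F with 3.997 ± 1.41 (SD, n = 3), and no neighbours in that order overlapped. In F0 females Act88F came first with 2186 ± 1723 CPM per kb, before Act79B with 1734 ± 1237, Act57B with 880 ± 411, Act5C with 775 ± 80.1 and Act87E with 752 ± 442 (SD, n = 3). Those 5 genes overlapped with their neighbours, and only Act42A, at 79.0 ± 7.04 CPM per kb, lay clear below them. INT females had Act5C first at 641 ± 20.3 CPM per kb (SD, n = 3), with Act79B, Act57B, Act88F and Act87E overlapping in turn and Act42A clear below at 80.8 ± 2.16. INT males had Act57B at 531 ± 8.21 and Act5C at 523 ± 175 CPM per kb with overlap, NINT males had Act5C at 646 ± 92.1 clear of Act57B at 390 ± 75.5, and F0 males had Act5C at 435 ± 67.6 overlapping Act79B at 386 ± 410 (SD, n = 3 each). Act88F was last in INT males at 6.17 ± 0.805 and in NINT males at 6.51 ± 0.897 CPM per kb, each without overlap with the gene above it.

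The share of actin counts that came from the cytoplasmic genes Act5C and Act42A gave a view of the family that does not depend on scaling between libraries. It was 54.6%, 43.0% and 15.9% in INT females, 49.3%, 49.0% and 58.7% in NINT females, and 10.52%, 11.7% and 39.3% in F0 females. NINT females all lay above all F0 females, and INT females spread over almost the whole range. The share in males was 35.7%, 32.9% and 49.0% in INT, 58.0%, 52.1% and 51.0% in NINT, and 19.7%, 40.3% and 38.9% in F0. All NINT males were above all INT males and all F0 males. The widest Wilson interval of 95% on a share in a single library was 0.767 percentage points, which covers counting error only.

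The cytoplasmic share averaged 37.8% ± 19.8 in INT females, 52.3% ± 5.50 in NINT females and 20.5% ± 16.3 in F0 females, and 39.2% ± 8.57, 53.7% ± 3.76 and 32.9% ± 11.5 in INT, NINT and F0 males (SD, n = 3 each). With 3 libraries against 3, the two-sided exact permutation test cannot go below p = 0.1. This smallest exact permutation p = 0.1 was reached by NINT against F0 in females, a difference of 31.8 percentage points, by NINT against F0 in males, 20.8 points, and by INT against NINT in males, -14.5 points. INT against NINT in females differed by -14.5 points with overlap (exact permutation p = 0.3), INT against F0 by 17.3 points in females (exact permutation p = 0.2) and by 6.25 points in males (exact permutation p = 0.6). Over both sexes, with labels permuted within each sex, INT was 14.5 points lower than NINT (difference -14.5, exact permutation p = 0.035, 38.5% ± 13.7 against 53.0% ± 4.28, SD, n = 6 each). After adjustment over the 8 comparisons of this share that p was 0.2, so no comparison passed. Females differed from males by -5.07 points (36.9% ± 19.0 against 41.9% ± 11.8, SD, n = 9 each; exact permutation p = 0.37). With each library left out in turn, INT against NINT in females differed by -22.85 to -3.543 points and INT against F0 in females by 8.95 to 28.26 points. The values -3.543 and 28.26 came without the third INT female, and -22.85 and 8.95 without the first. The difference of INT from NINT, both sexes together, was -9.03 points without the third INT female, and without the first F0 male that of INT and F0 males turned to -0.389 points.

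**Figure D2:**
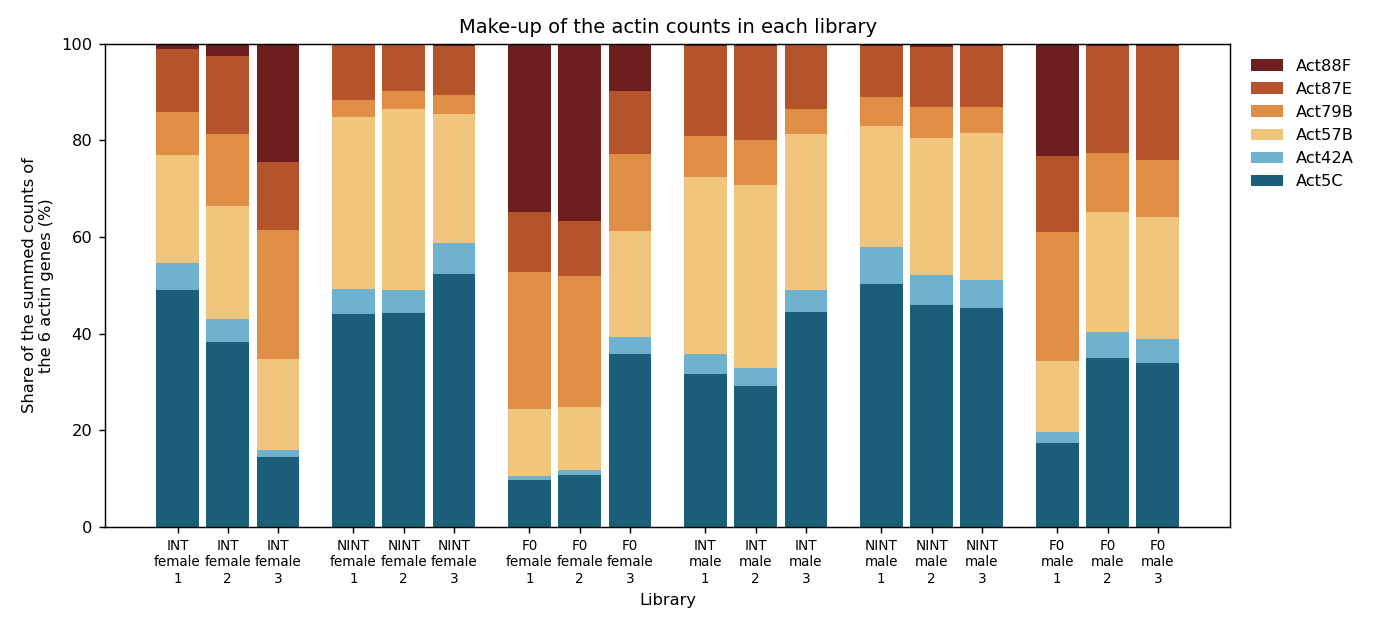
Share of the summed counts of the 6 actin genes, in percent, taken by each gene in each of the 18 libraries, stacked with the cytoplasmic genes in blue at the bottom and the muscle genes in yellow to dark red above. The blue part covers 49.0% to 58.7% of the bar in NINT females and 10.52% to 39.3% in F0 females, and Act88F is a wide band in the 4 high libraries.

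Beyond cytoplasmic against muscle, each muscle gene contributed in its own way. Act88F counts were 53.5% and 57.9% of the sum of the other 5 actin genes in the first and second F0 females, 32.3% in the third INT female and 30.3% in the first F0 male. In the third F0 female this was 10.7% and in the second INT female 2.53%, and in the remaining 12 libraries it stayed under 1%. The ratio of Act57B to Act87E counts, between genes used in similar muscles, was 1.33 to 1.71 in INT females, 2.63 to 3.91 in NINT females and 1.12 to 1.66 in F0 females. In males it was 1.94 to 2.47 in INT, 2.28 to 2.42 in NINT and 0.93 to 1.12 in F0. NINT females were thus apart from the other females, and F0 males from the other males. The ratio of Act5C to Act42A was 10.4 to 10.9 in F0 females and 6.55 to 9.64 in the other 15 libraries. Both ratios were chosen for description after their values were seen and were given no test.

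**Figure D3:**
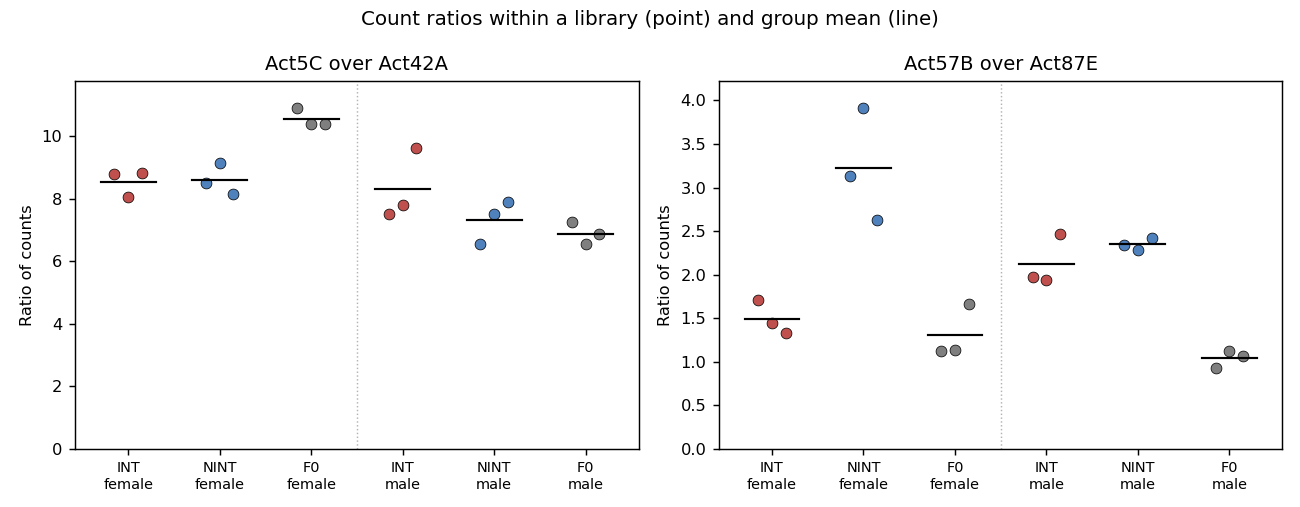
Ratio of counts of Act5C over Act42A (left) and of Act57B over Act87E (right), with 1 point per library, a line at the group mean and axes starting at 0. The F0 females lie highest on the left, at 10.4 to 10.9, and the NINT females highest on the right, at 2.63 to 3.91.

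NINT against F0 in females was the 1 comparison within a sex in which edgeR called members, and there 3 muscle actins fell. All fold changes that follow are log2 values from edgeR's quasi-likelihood test, with the standard error (SE), and p-values are Benjamini-Hochberg adjusted over all genes tested in a comparison, with a threshold of 0.05. Act88F averaged 6.37 ± 2.25 CPM in NINT females and 3486 ± 2748 CPM in F0 females (SD, n = 3 each), a log2 fold change of -9.10 (SE 2.0, edgeR adjusted p = 0.019). Act79B averaged 85.2 ± 9.69 CPM and 2808 ± 2002 CPM in the same groups, a change of -5.05 (SE 1.05, edgeR adjusted p = 0.016). For Act87E the means were 236 ± 36.3 CPM in NINT and 1281 ± 753 CPM in F0 females, a change of -2.45 (SE 0.60, edgeR adjusted p = 0.025). Act57B had -0.99 (SE 0.49, edgeR adjusted p = 0.16), Act5C -0.37 (SE 0.15, edgeR adjusted p = 0.089) and Act42A -0.08 (SE 0.11, edgeR adjusted p = 0.63). Of all genes tested, 22.5% were called and 14.9% were called lower, against 7.59% higher, so 3 of 6 lower members stood beside a broad background of calls. DESeq2 called these 3 and also Act5C (-0.39, adjusted p = 0.012), with 4503 genes called in all. Groups did not overlap for 4 of 6 members, against 39.3% of all genes. The median log2 fold change was -1.72 over the 6 members and -0.01 over all genes tested.

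Whether these genes passed the threshold depended on single libraries, while their fold changes moved little. With each library left out in turn, the log2 fold change was -9.64 to -8.67 for Act88F, -5.54 to -4.61 for Act79B and -2.86 to -2.06 for Act87E. Without any 1 of the 3 NINT females, or without the second F0 female, none of the 6 passed, with edgeR adjusted p of 0.056 to 0.079 for Act88F, 0.053 to 0.075 for Act79B and 0.074 to 0.099 for Act87E. Without the first F0 female Act79B and Act88F were called, and without the third F0 female 5 members were called, Act42A being the exception. The calls over all genes moved with the same libraries, from 2961 with every library to 6851 without the third F0 female. They fell to 583 to 656 without any 1 of the 3 NINT females or without the second F0 female. Without the 4 high libraries Act79B had -2.65 and Act88F -5.67, while Act87E had -0.90. Those libraries were picked by the level of Act88F itself, and the single F0 female that remains is assumed to vary like the other groups. With library totals in place of TMM factors, the median of all genes moved to 0.89 and the calls to 91.9% higher, against 33.7% higher with TMM. On that scale Act5C had 0.57 (edgeR adjusted p = 0.067), Act42A 0.86 (edgeR adjusted p = 0.019) and Act57B 0.05 (edgeR adjusted p = 0.92). Their change of sign goes with the shift of all genes, and all 3 lay below the median of all genes on both scales. Act79B had -3.94, Act87E -1.37 and Act88F -7.98 there, all called. The ovary and fat body markers, the ribosomal RNA and the TMM factors given above moved with the same groups. With ribosomal RNA left out of the fit, Act79B, Act87E and Act88F were called, with 2977 genes called in all. Beyond that refit and the library totals, the part of these features was not tested.

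Between INT and NINT females no member passed the test, beside 0.995% of all genes called. All 6 log2 fold changes were above 0, and those of Act79B, Act87E and Act88F were the highest. Act88F averaged 689 ± 1114 CPM in INT and 6.37 ± 2.25 CPM in NINT females (SD, n = 3 each), a log2 fold change of 6.77 (SE 1.81, edgeR adjusted p = 0.14). Act79B averaged 930 ± 1076 CPM in INT against 85.2 ± 9.69 CPM in NINT females, a log2 fold change of 3.46 (SE 0.97, edgeR adjusted p = 0.15). Act87E had 1.44 (SE 0.58, edgeR adjusted p = 0.29). These 3 members of 6 had an unadjusted p under 0.05, as did 15% of all genes. Groups did not overlap for 4 of 6 members, these 3 and Act42A, against 37.7% of all genes. Act57B, Act42A and Act5C had 0.24, 0.10 and 0.09. DESeq2 called Act88F (6.75, adjusted p = 0.00037) and Act79B (3.44, adjusted p = 0.0061), with 865 genes called in all, against 131 with edgeR. Without the third INT female edgeR called none of the 6, with 2.84 for Act88F (edgeR adjusted p = 0.35) and 1.86 for Act79B (edgeR adjusted p = 0.42). When the first and second F0 females, which share the estimate of spread, were left out as well, the values were 2.86 and 1.88, and Act57B had -0.38. Those libraries were picked by the level of Act88F itself, and a single F0 female remained.

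Between INT and F0 females no member passed the test. Of the 6 members 0 were called by edgeR or DESeq2, 0 had an unadjusted p under 0.05 against 17.7% of all genes, and 2.12% of all genes were called. Act88F averaged 689 ± 1114 CPM in INT and 3486 ± 2748 CPM in F0 females, and its log2 fold change was -2.34 (SE 1.48, edgeR adjusted p = 0.4). Act79B had -1.60 (SE 0.90, edgeR adjusted p = 0.36), Act87E -1.01 (SE 0.58, edgeR adjusted p = 0.36) and Act57B -0.75 (SE 0.49, edgeR adjusted p = 0.41). Act5C, at -0.28 (SE 0.15, edgeR adjusted p = 0.33), was the 1 member of 6 whose groups did not overlap, against 18.7% of all genes. With each library left out in turn, Act88F had -6.22 to -1.76, Act79B -3.16 to -1.11 and Act87E -1.73 to -0.62, with the value farthest from 0 without the third INT female each time. Leaving out the third F0 female brought Act87E to -1.42 and below the threshold (edgeR adjusted p = 0.048). That fit called 4310 genes in all, against 279 with every library.

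**Figure D4:**
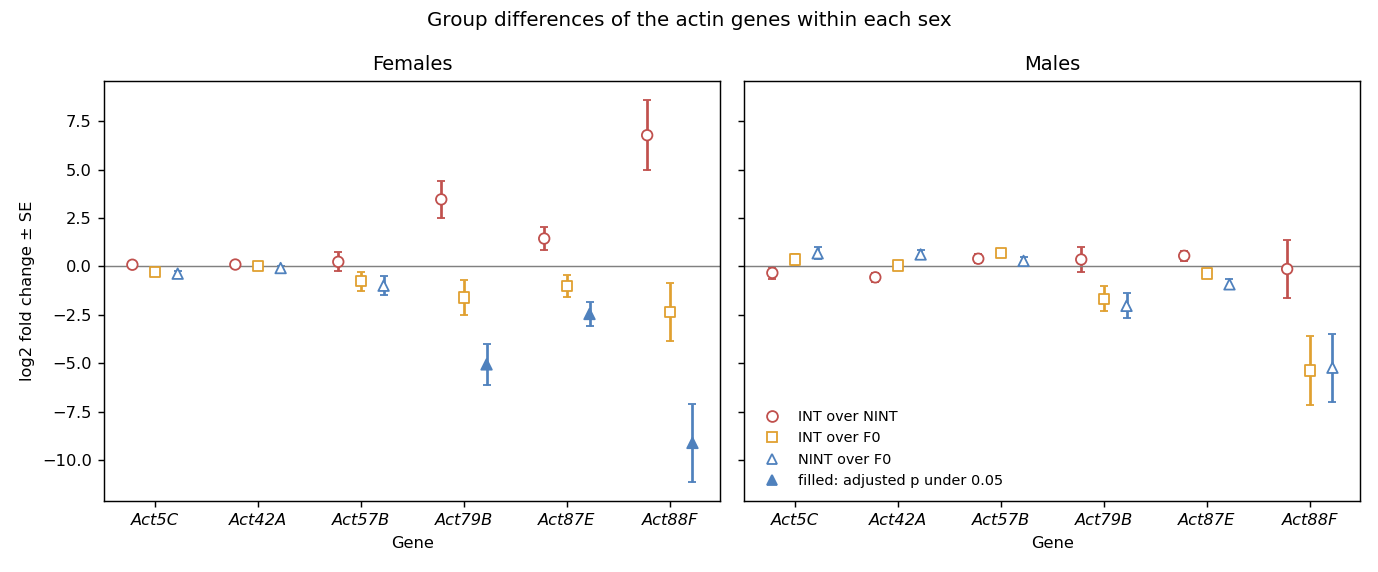
Log2 fold change and its standard error for each actin gene in females (left) and males (right), for INT over NINT (circles), INT over F0 (squares) and NINT over F0 (triangles); filled symbols have an edgeR adjusted p under 0.05. The 3 filled symbols are Act79B at -5.05, Act87E at -2.45 and Act88F at -9.10, all for NINT over F0 in females.

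In males no member was called in any of the 3 comparisons. NINT against F0 came nearest, with 5 of 6 members at an unadjusted p under 0.05, against 31.9% of all genes, and 5.04% of all genes called. There Act87E averaged 285 ± 46.4 CPM in NINT and 579 ± 205 CPM in F0 males (SD, n = 3 each), a log2 fold change of -0.92 (SE 0.25, edgeR adjusted p = 0.071), and DESeq2 called it. DESeq2 called 3125 genes in all for NINT against F0 males, and gave no adjusted p for Act79B and Act88F in any of the 3 comparisons of males. Act79B had -2.03 (SE 0.65, edgeR adjusted p = 0.092). Without the first F0 male Act79B had -0.62 and Act87E -0.57. The cytoplasmic genes pointed the other way, with 0.68 for Act5C (SE 0.30, edgeR adjusted p = 0.15) and 0.62 for Act42A (SE 0.23, edgeR adjusted p = 0.12). Groups did not overlap for these 4 members, against 48.7% of all genes. The value of -5.22 for Act88F (SE 1.75, edgeR adjusted p = 0.098) rested on the first F0 male, and without that library it was 0.30.

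INT against F0 males gave 0.69 for Act57B (915 ± 14.2 CPM in INT and 591 ± 147 CPM in F0 males, SE 0.22, edgeR adjusted p = 0.16), which DESeq2 called among 1416 genes in all. Act79B had -1.67 (SE 0.64, edgeR adjusted p = 0.21), or -0.23 without the first F0 male. These 2 members of 6 did not overlap, against 22.2% of all genes, with 1.82% of all genes called. An unadjusted p under 0.05 was reached by 3 of 6 members, Act57B, Act79B and Act88F, and by 19.1% of all genes. Act88F had -5.36 (SE 1.76, edgeR adjusted p = 0.16) with the first F0 male and 0.19 without it. INT against NINT males gave -0.56 for Act42A (108 ± 20.8 CPM in INT and 156 ± 31.2 CPM in NINT males, SE 0.23, edgeR adjusted p = 0.29), and 0.0399% of all genes were called. Of the 6 members 1, Act42A, and of all genes 16.4% had an unadjusted p under 0.05, and DESeq2 called none of the 4 members it gave an adjusted p. Act87E had 0.55 (SE 0.25, edgeR adjusted p = 0.32) and Act57B 0.40 (SE 0.22, edgeR adjusted p = 0.41), 2 members of 6 without overlap, against 19.6% of all genes. Without the third INT male, whose Act5C and Act42A stood above the other INT males, Act5C had -0.72 (edgeR adjusted p = 0.04) and Act42A -0.79 (edgeR adjusted p = 0.026). That fit called 3956 genes in all, against 6 with every library. The summed ovary and fat body markers differed between single NINT and F0 males as given above. A refit without the 4 male libraries rich in yolk protein RNA left 1 NINT and 1 F0 male. In that refit Act88F had 0.06 in INT against NINT males and 0.025 in INT against F0 males. Because it left single libraries, the part of these markers was not tested.

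Over both sexes no member was called for INT against NINT, beside 1.95% of all genes. Act79B had a log2 fold change of 1.94 (SE 0.61, edgeR adjusted p = 0.098), Act87E 1.02 (SE 0.34, edgeR adjusted p = 0.12) and Act88F 3.34 (SE 1.21, edgeR adjusted p = 0.14), and DESeq2 called all 3 among 1316 genes in all. These 3 members of 6 had an unadjusted p under 0.05, as did 20.7% of all genes. Without the third INT male Act5C had -0.39 (edgeR adjusted p = 0.045) and Act42A -0.43 (edgeR adjusted p = 0.023). That fit called 2696 genes in all, against 299 with every library. Whether a difference itself varied with sex was tested by subtracting the log2 fold change of males from that of females. For INT against NINT no member was called, beside 0.268% of all genes, with 6.83 for Act88F (SE 2.42, edgeR adjusted p = 0.25) and 3.02 for Act79B (SE 1.2, edgeR adjusted p = 0.32). There 3 of 6 members and 12.2% of all genes had an unadjusted p under 0.05, and DESeq2 called Act88F among 505 genes in all. For INT against F0 no member was called, beside 0.555% of all genes, and Act57B had -1.38 (SE 0.57, edgeR adjusted p = 0.25). It was the 1 member of 6 with an unadjusted p under 0.05, against 17.2% of all genes, and DESeq2 called none. For NINT against F0 no member was called, beside 8.15% of all genes, and 3 of 6 members had an unadjusted p under 0.05, against 28.4% of all genes. Act5C came nearest there. In TMM-scaled CPM all NINT libraries lay below all F0 libraries in females and above them in males. The sex difference was -0.93 (SE 0.29, edgeR adjusted p = 0.06). Without the third F0 female this sex difference was called for Act5C, Act57B, Act79B and Act87E, and that of INT against F0 for Act57B, while without the first F0 male that of NINT against F0 was called for Act79B and Act88F. These 3 results came with 4497, 2462 and 1308 genes called in all, against 1248, 85 and 1248 with every library. For the sex difference of NINT against F0, DESeq2 called Act5C among 2538 genes in all. With library totals that difference was -0.06 for Act5C, where the median of all genes was 0.80.

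Between the sexes, averaged over the 3 groups, 3 of 6 members were called higher in females, although in NINT the means of these 3 genes were higher in males. This comparison called 81.2% of all genes, 35.6% higher and 45.7% lower, so a call here sets a gene little apart. Act88F had a log2 fold change of 2.84 for females over males (SE 0.96, edgeR adjusted p = 0.013), Act79B 1.23 (SE 0.48, edgeR adjusted p = 0.029) and Act5C 0.34 (SE 0.12, edgeR adjusted p = 0.015). With each library left out in turn Act88F had 1.54 to 4.66 and Act79B 0.70 to 1.68, lowest without the third INT female, where neither was called, and highest without the first F0 male. For Act88F, NINT had 6.37 ± 2.25 CPM in females and 10.4 ± 1.43 CPM in males, and F0 had 3486 ± 2748 CPM in females and 408 ± 690 CPM in males (SD, n = 3 each). NINT also had 85.2 ± 9.69 CPM of Act79B in females and 144 ± 8.17 CPM in males, and 1058 ± 59.6 CPM of Act5C in females and 1133 ± 161 CPM in males (SD, n = 3 each). Act57B had 0.51 (SE 0.23, edgeR adjusted p = 0.054), Act87E 0.47 (SE 0.28, edgeR adjusted p = 0.13) and Act42A 0.05 (SE 0.09, edgeR adjusted p = 0.61). With library totals Act5C had -0.08 and Act42A -0.37 (edgeR adjusted p = 0.019), while the median of all genes was -0.63, against -0.21 with TMM. The change of sign of both goes with that shift, and both lay above the median of all genes on both scales. With library totals Act88F had 2.36 (edgeR adjusted p = 0.025) and Act79B 0.75 (edgeR adjusted p = 0.13). Leaving out single libraries left 1 to 5 members called, with 1 called without the third INT female, without the second F0 male or without the third F0 male, and 5 without the third F0 female.

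The level of Act88F was read beside flightin (fln), a myosin-binding protein of the indirect flight muscle, and beside the flight muscle troponin C gene TpnC4. fln was at 11.8, 19.4 and 725 CPM in INT females, 0.849, 0.877 and 2.94 CPM in NINT females, and 1834, 1802 and 146 CPM in F0 females. In males it was 1.53 to 5.33 CPM, except for 652 CPM in the first F0 male. The 4 high libraries were thus the highest for fln as for Act88F, and females had the same order for both genes. Among the remaining males the order differed, with the second F0 male lowest in Act88F and highest in fln. The ratio of Act88F to fln counts lay between 1.57 and 7.41, while Act88F itself ranged over 583-fold in plain CPM. This ratio was 1.90 to 3.62 in INT females, 3.03 to 6.36 in NINT females and 2.23 to 2.89 in F0 females. For males it was 3.27 to 5.39 in INT, 4.26 to 7.41 in NINT and 1.57 to 2.10 in F0. Between NINT and F0 females fln fell by 9.67 on the log2 scale (SE 2.06, edgeR adjusted p = 0.017). TpnC4 was at 17.3 to 263 CPM in INT females, 0.867 to 1.79 CPM in NINT females and 58.4 to 543 CPM in F0 females, and the ratio of Act88F to TpnC4 counts ran from 1.29 to 12.3 over the 18 libraries. The third flight muscle marker, myofilin (Mf), varied less, with 1162 to 1620 CPM in INT females, 515 to 734 CPM in NINT females and 1046 to 1752 CPM in F0 females. In males Mf had 1272 CPM in the first F0 male and 1245 CPM in the second, whose fln levels were 652 and 5.33 CPM. The summed plain CPM of the 3 markers, of which Mf made up most in NINT females, was 973 to 2368 in INT females, 614 to 863 in NINT females and 1007 to 2495 in F0 females, and none of the 3 was at 0 in any library. Neither was any of the 4 markers of tubular and body wall muscle, TpnC73F, TpnC41C, TpnC47D and Mlp84B, whose sum was 310 to 862 in INT females, 297 to 324 in NINT females and 377 to 682 in F0 females. These markers did not move alike. TpnC41C had 46.8 to 308 TMM-scaled CPM in INT females, 17.1 to 20.7 in NINT females and 92.3 to 421 in F0 females. TpnC73F had 61.1 to 139, 48.2 to 100 and 93.2 to 264 in the same groups.

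**Figure D5:**
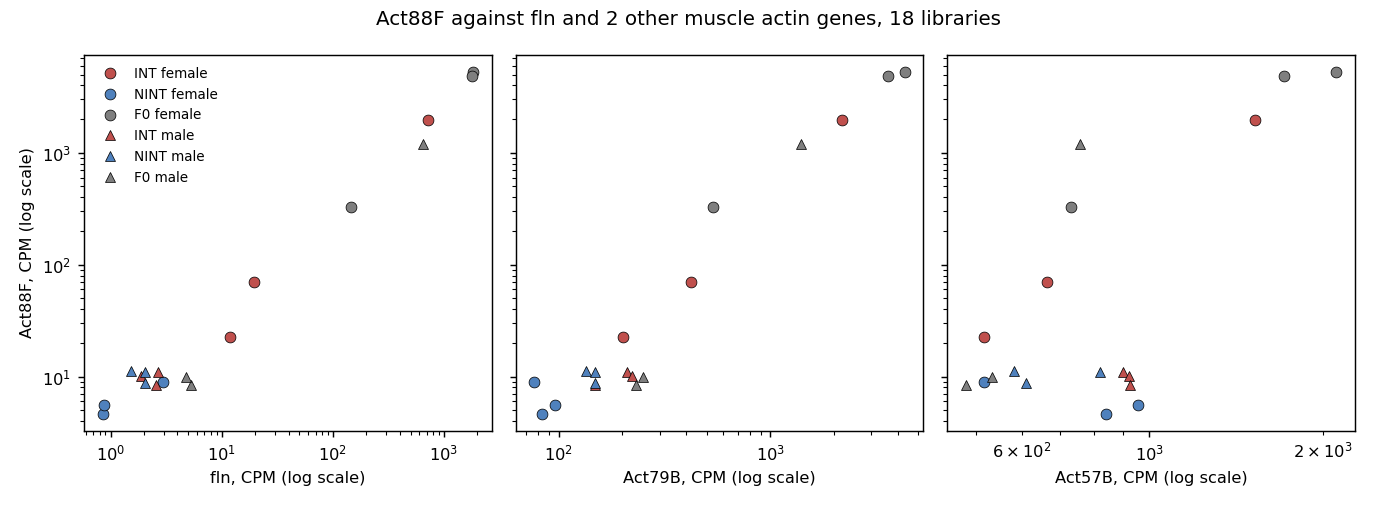
Level of Act88F in each library against that of fln (left), Act79B (middle) and Act57B (right), in TMM-scaled CPM on log axes, with females as circles and males as triangles. The 4 high libraries lie at the top of all panels, and Act88F follows fln and Act79B more closely than it follows Act57B.

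Other genes of the actin system were counted by role. Among 20 genes of the thin filament and its regulators, which include tropomyosins, troponins and Z-disc proteins, 17 were called lower in NINT than in F0 females and 0 were called higher. Their median log2 fold change was -2.05. All 11 tested genes of the thick and connecting filaments were called lower, with a median of -2.95, against -0.01 for all genes and 14.9% called lower. TpnC4 averaged 1.47 ± 0.52 CPM in NINT and 344 ± 254 CPM in F0 females, a change of -7.88 (edgeR adjusted p = 0.0091). TpnC41C changed by -3.91 (edgeR adjusted p = 0.013), TpnC25D by -2.64 (edgeR adjusted p = 0.014) and the Z-disc gene Zasp52 by -2.07 (edgeR adjusted p = 0.014). Of the thick filament list, projectin (bt) changed by -2.88 (edgeR adjusted p = 0.014), the muscle LIM genes Mlp60A by -1.95 (edgeR adjusted p = 0.0054) and Mlp84B by -1.12 (edgeR adjusted p = 0.016), and myofilin (Mf) by -1.17 (edgeR adjusted p = 0.017). These lists were drawn up with earlier results of the same libraries known, so their direction is not independent evidence.

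Away from the sarcomere the lists are given for NINT against F0 females, where 14.9% of all genes were called lower and 7.59% higher. Of 12 genes for monomer binding, severing and capping 0 were called, although 9 had values above 0. That list holds flr, the actin-interacting protein named by the flr3 allele of the founder strains, at 0.14 (SE 0.11, edgeR adjusted p = 0.37). Of 19 nucleation and elongation genes tested 2 were called lower, the formins Fhos at -1.59 (edgeR adjusted p = 0.017) and form3 at -1.79 (edgeR adjusted p = 0.027). In that list 1 was called higher, the formin dia at 0.37 (edgeR adjusted p = 0.049). Of 13 crosslinking and nonmuscle myosin genes 3 were called lower, namely f at -2.52 (edgeR adjusted p = 0.024), jbug, a filamin-type protein, at -1.79 (edgeR adjusted p = 0.032) and alpha-Spec at -0.96 (edgeR adjusted p = 0.05, just under the threshold before rounding). Of 7 transcription factors 3 were called lower, hth at -1.41 (edgeR adjusted p = 0.026), vg at -1.62 (edgeR adjusted p = 0.038) and salm at -2.03 (edgeR adjusted p = 0.041), of which hth and salm are known for specifying flight muscle. Among 8 actin-related proteins tested Arp8, a subunit of a chromatin remodeller, was higher at 0.89 (edgeR adjusted p = 0.022), and among 11 chaperonin and prefoldin genes the prefoldin gene mgr was higher at 0.59 (edgeR adjusted p = 0.038).

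In the other comparisons within a sex, the same lists are set beside the share of all genes called. INT against NINT females had 1 called list gene, beside 0.995% of all genes. It was Mlp60A, higher in INT than in NINT females with 414 ± 83.1 CPM against 135 ± 25.9 CPM (log2 fold change 1.63, SE 0.29, edgeR adjusted p = 0.035). All 20 thin filament genes and all 11 thick filament genes had values above 0 there, with medians of 1.11 and 1.63 against 0.01 for all genes. INT against F0 had no list gene called by edgeR in either sex, beside 2.12% of all genes in females and 1.82% in males. NINT against F0 males had 4, beside 5.04% of all genes, with Arp8 higher at 1.04 (edgeR adjusted p = 0.027), and TpnC41C at -2.12 (edgeR adjusted p = 0.045), Fhos at -0.69 (edgeR adjusted p = 0.04) and salm at -0.99 (edgeR adjusted p = 0.04) lower. INT against NINT males had 0, beside 0.0399% of all genes. In females against males 10 of the 11 chaperonin and prefoldin genes tested, which fold actin among other proteins, were called higher and 0 were called lower, beside 35.6% of all genes called higher. Monomer binding genes had 10 of 12 called higher and 1 called lower, actin-related proteins 6 of 9 and 2, and crosslinking genes 7 of 13 and 2. Nucleation genes had 9 of 19 called higher and 3 called lower, thin filament genes 9 of 20 and 2, thick filament genes 4 of 11 and 0, and transcription factors 3 of 7 and 0. flr was higher in females as well, with a log2 fold change of 0.97 (SE 0.08, edgeR adjusted p = 1.4e-08).

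Finally, the genes whose levels followed each actin most closely were listed over the 18 libraries, after the mean of each sex was taken out. The points share library, depth and scaling, and the correlations of log2 CPM are descriptions. Among the members themselves, Act79B followed Act88F (Pearson r = 0.98) and Act87E (r = 0.97), and Act5C followed Act42A (r = 0.82), while without the 4 high libraries these were 0.90, 0.86 and 0.85. Act57B followed Act87E with r = 0.77, which was 0.14 without those libraries. Nearest to Act79B were Mlc1, a myosin light chain (r = 0.992), kkv, a chitin synthase (r = 0.985), and CG9090 (r = 0.983). Nearest to Act87E were Prm, the thick filament protein paramyosin (r = 0.986), CG9090 (r = 0.985) and Actn, the Z-disc protein alpha-actinin (r = 0.981). Act88F had the cuticle protein genes Cpr100A (r = 0.993) and Cpr97Ea (r = 0.991) and the noncoding gene CR45161 (r = 0.989) nearest. Its 2 cuticle neighbours held r = 0.97 and 0.94 over the 14 libraries without the high ones. Act57B was nearest to the small nucleolar RNA gene that lies inside it (r = 0.977), then to CG44245 (r = 0.962) and CG45076 (r = 0.937). Act5C was nearest to CG17111 (r = 0.98), the ion cotransporter gene Ncc69 (r = 0.945) and the acetylcholine receptor subunit nAChRbeta3 (r = 0.94). Act42A was nearest to ligatin (r = 0.90), beta'COP, a coat protein of Golgi vesicles (r = 0.892), and eIF3-S10, a translation initiation factor (r = 0.873).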

How the data were processed

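The authors deposited raw counts of reads per gene for whole-fly RNA-seq, 1 table per sex, with no normalization, per the file headers. Each table also gives a gene width in bases, an other deposited value, which was not used for levels. Per the labels, total RNA was made into libraries with a stranded kit. The submitters' processing notes name dm6 and DESeq2, and no aligner, counting tool or strand setting is named in the sources used here. No entry lacked a gene symbol.

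The 9 libraries of a sex were fitted together in edgeR 4.0.16 (R 4.3.3, limma 3.58.1) with 1 coefficient per group, TMM factors, genes kept by filterByExpr (minimum count 10, minimum total 15) and the two-sided quasi-likelihood test; contrasts across sexes used all 18 libraries. The threshold for a call was 0.05 after Benjamini-Hochberg adjustment. The SE is the log2 fold change divided by the square root of F. Merged exon lengths came from the Ensembl annotation. Alternatives were DESeq2 1.42.0, RLE factors, no filter, removal of ribosomal RNA, a block for replicate number and leaving out each library in turn. Library totals in place of TMM, 2 sets of libraries left out and the sex differences against F0 were added after the data were seen. The members and lists were chosen with earlier results of these data known. Of 105 list genes 102 matched an entry. Named genes were the 6 members, up to 4 called genes by p for each list and comparison within a sex, and for each member the 3 genes of highest correlation among 10593 with a mean of at least 5 CPM (prior count 2). fln, TpnC4 and flr were described outside that rule after their values were seen, and TpnC4 is also named by it. Whether same-numbered libraries share a source was checked by the correlation of their deviations from group means, which was -0.39 to 0.42, so numbers were not treated as pairs. Replicates differed by more than counting noise, at 53.4 to 1230 chi-square units per gene. The code of the fits was tested on simulated data with the same spread set for every gene. That check does not cover libraries as uneven as these. Python 3.11.15, pandas 2.3.3, numpy 2.4.6 and matplotlib 3.10.9 were used for tables and figures.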

Additional observations from a re-analysis of the deposited data

How the results depend on the processing

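Of 1122 fold changes of the members under the alternatives, 1067 kept their direction, 55 changed it (2 of these past the threshold), 38 gained a call and 36 lost one; the cause was not tested except where an alternative had fewer libraries. The replicate numbers were not treated as pairs, although the correlations between same-numbered libraries cannot exclude a shared source. With the replicate number as a block 1 member, Act88F, was called in NINT against F0 females, against 3 without it. Over all genes 850 were called with the block and 2961 without it. DESeq2 called 4 members in NINT against F0 females, Act5C being the added one, 2 in INT against NINT females, 1 each in INT against F0 males and NINT against F0 males, 3 in INT against NINT over both sexes, and 1 each in the sex difference of INT against NINT and of NINT against F0. Over all genes DESeq2 called 4503, 865, 1416, 3125, 1316, 505 and 2538 in these comparisons, in that order. With edgeR these totals were 2961, 131, 274, 759, 299, 41 and 1248. DESeq2 gave no adjusted p for Act79B and Act88F in males. The 4 high libraries were picked by the level of Act88F itself, and without them a single F0 female remains. In that fit Act88F had 2.86 and Act79B 1.88 in INT against NINT females. With each library left out in turn, the number called was 0 to 1 in INT against F0 females, 0 to 5 in NINT against F0 females, 0 to 2 in INT against NINT males and over both sexes, 0 to 1 and 0 to 4 in the sex differences of INT and of NINT against F0, and 1 to 5 in females against males. The highest of each came with 4310, 6851, 3956, 2696, 2462, 4497 and 12553 genes called in all, in that order.

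With library totals, which moved the median of all genes by over 0.1 in each comparison that involves females, INT against NINT females had -0.27 for Act5C, -0.26 for Act42A and -0.12 for Act57B, INT against F0 females 0.29 for Act5C, NINT against F0 females 0.57 for Act5C, 0.86 for Act42A and 0.05 for Act57B, INT against F0 males -0.034 for Act42A, the sex difference of INT against F0 0.034 for Act5C and 0.15 for Act87E, that of NINT against F0 0.30 for Act42A, and females against males -0.08 for Act5C and -0.37 for Act42A. That median was -0.35 in INT against NINT females, 0.54 in INT against F0 females and 0.89 in NINT against F0 females, where the members called lower stayed below it. The share of calls that were higher was 73.9%, 89.1% and 91.9% in these 3 comparisons with library totals, against 89.3%, 56.3% and 33.7% with TMM.

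Without the 4 high libraries Act42A had 0.09 and Act57B 0.07 in NINT against F0 females, Act57B -0.38 in INT against NINT females and -0.037 over both sexes, Act87E 0.0043 and Act88F 0.19 in INT against F0 males, Act88F 0.30 in NINT against F0 males, Act42A -0.019, Act79B -0.58 and Act88F -3.04 in the sex difference of INT against F0, and Act87E -0.17 in females against males. Without the 4 male libraries rich in yolk protein RNA, which leaves 1 NINT and 1 F0 male that are assumed to vary like the other groups, Act88F had 0.06 in INT against NINT males, 0.025 in INT against F0 males and -2.43 in the sex difference of INT against F0, where Act42A had -0.13 and Act79B -1.32, and Act42A had -0.034 in females against males. In that sex difference Act42A had -0.038 with no filter and -0.019 with ribosomal RNA left out, and in females against males it had -0.016 with DESeq2 and with RLE factors. With each library left out in turn, the ranges that cross 0 were -0.40 to 0.52 for Act57B in INT against NINT females, -0.04 to 0.07 for Act42A in INT against F0 females, and in INT against F0 males -0.035 to 0.55 for Act5C, -0.18 to 0.21 for Act42A, -0.56 to 0.0043 for Act87E and -5.93 to 0.19 for Act88F. They were -5.80 to 0.30 for Act88F in NINT against F0 males, -0.83 to 0.06 for Act57B in the sex difference of INT against NINT, -0.16 to 0.22 for Act42A, -1.48 to 0.57 for Act79B and -2.57 to 3.61 for Act88F in that of INT against F0, and -0.0037 to 0.13 for Act42A in females against males.

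The cytoplasmic share differed between INT and NINT over both sexes by -18.7 to -9.03 points with each library left out, and by -9.03 without the high libraries (exact permutation p = 0.065). For INT against F0 males it was -0.389 to 9.93 points, and -0.389 without the high libraries, and for females against males 2.63 without them. In females, with each library left out, it was -22.85 to -3.543 points for INT against NINT and 8.95 to 28.26 points for INT against F0. Counting error on a share was at most 0.767 points wide, and Act88F spread 88.3-fold within INT females and 144-fold within F0 males.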
